A study of Nicotiana tabacum with 6 samples.

Results

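DnaJ proteins, also called J proteins or HSP40s, are the co-chaperones that hand unfolded proteins to the chaperone HSP70. In the expression tables of the series, 262 of 69500 tobacco gene models had DnaJ in their description, and 125 of these reached a mean normalized abundance of 1 across the 6 libraries and were taken as members. Of the other 137, 45 were listed at 0 in every library. Members were chosen by their description and by this mean, which is given as a description. The difference between the plant materials was not a criterion. The mean spans both materials, however, so a low model could pass through high values in only 1 of them.

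The study measured RNA from young leaves of Nicotiana tabacum seedlings, variety NC82, by RNA-seq after 24 h at 4 °C. There were 3 libraries from plants overexpressing NtPhyA, a gene named for the light receptor phytochrome A (OE), and 3 from wild-type plants (WT). Since every library came from a chilled leaf, plant materials were compared and not cold with warmth. The labels name neither the promoter of the transgene nor the number of transgenic lines. Nor do they say that replicates came from separate plants, so p-values may measure technical spread only.

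J domains stimulate the ATPase of HSP70, which then closes on its substrate, and GrpE-type or BAG proteins reopen it by exchanging the nucleotide. Canonical J proteins, like the bacterial DnaJ, carry a J domain, a cysteine-rich zinc-binding domain and a C-terminal domain that binds substrate. The second type lacks the cysteine-rich domain, and the third, the most varied, keeps only the J domain, often beside domains that place it at a membrane, a ribosome or an iron-sulphur cluster. Plants also have proteins with the cysteine-rich domain alone, among them the plastid proteins BSD2, known in maize and Arabidopsis for Rubisco assembly, and ORANGE, known in cauliflower and Arabidopsis for carotenoid accumulation.

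The values are a normalized abundance per gene model, in a unit that the labels do not name, and comparing levels between models assumes that they are corrected for length. Library totals were 440137 to 475581 in OE and 450972 to 568208 in WT, and the depth in reads is unknown. As a check of the tissue, models described as chlorophyll a-b binding summed to 1651 to 8217 in OE and 1296 to 6172 in WT, and Rubisco small chains to 11895 to 29354 in OE and 6560 to 22073 in WT. Oleosins, of seeds, summed to 12.3 to 20.8 in OE and 14.3 to 24.4 in WT. Models matched as seed storage summed to 2082 to 4113 in OE and 2828 to 6010 in WT, a text that also occurs in descriptions of lipid transfer proteins. Pollen allergens summed to 337 to 1088 in OE and 459 to 1171 in WT, and pollen Ole e 1 proteins to 319 to 747 in OE and 336 to 366 in WT. Terpene synthases, of glandular trichomes, summed to 373 to 1052 in OE and 320 to 614 in WT. Of the lists for dividing cells, histone H4 summed to 832 to 1335 in OE and 649 to 749 in WT, and cyclins to 234 to 295 in OE and 240 to 342 in WT.

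The label DnaJ domain holds for 107 of the 125 models, whose description names a J domain. Of the other 18, 17 name the DnaJ cysteine-rich domain without a J domain and 1 names a conserved domain of DnaJ homologue subfamily C, so 18 members are DnaJ-related by description and not shown to be J proteins. The 107 comprise 6 canonical models with all 3 domains, 15 with a J and a substrate-binding domain, 61 with the J domain as the only named feature, and 25 with some other named domain. The files give no gene symbols, so models are called by identifier and description, and how the counting divided reads between near-identical copies is uncertain.

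The 125 models spanned a mean abundance of 1.0 to 169.1 with a median of 7.5, against a median of 6.1 for all 17962 models with a mean of at least 1. Only 10 reached 50, and 21 lay below 2. The 8 most abundant models made up 39.7% of the abundance summed over the members. The members took a small share of each library's total, from 0.409% in WT replicate 2 to 0.509% in WT replicate 1. The share averaged 0.465 ± 0.0158% in OE and 0.447 ± 0.0542% in WT (SD, n = 3 each).

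The most abundant member was a canonical J protein, Nitab4.5_0001781g0190. It was at 187, 155 and 159 in the OE libraries, against 176, 159 and 180 in the WT libraries, with a log2 difference of -0.04 ± 0.25 (SE). The groups overlapped throughout, and its coefficient of variation over the 6 libraries was 7.86%, the steadiest of the 8 most abundant members. The second, Nitab4.5_0000039g0180, was a cysteine-rich model with no J domain named. It was at 110, 134 and 99.4 in OE and 146, 103 and 170 in WT, a log2 difference of -0.27 ± 0.30 (SE) that was -0.11 without WT replicate 3 and -0.47 without WT replicate 2, and 1 of the WT values fell within the OE range.

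Among the members with only a J domain, Nitab4.5_0000742g0110 was at 105, 105 and 117 in OE and 200, 84.8 and 125 in WT. Its OE values lay together, inside a WT range set by a single high and a single low library. Nitab4.5_0012292g0020 was at 94.99, 128 and 155 in OE and 88.8, 105 and 89.8 in WT, so that the lowest OE value lay within the WT range and the other two above it. Its log2 difference was 0.38 ± 0.28 (SE), and 0.22 without OE replicate 3. Nitab4.5_0000864g0040 was at 161, 102 and 52.6 in OE and 118, 94.5 and 113 in WT, with 1 OE library above the WT range, 1 within it and 1 below.

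The others of the 8 differed in steadiness. Nitab4.5_0000264g0020, cysteine-rich without a J domain, was at 64.7, 84.6 and 116 in OE and 72.7, 75.3 and 138 in WT, with the libraries numbered 3 highest in both groups. Nitab4.5_0000249g0130 has a J domain beside a ferredoxin-type iron-sulphur domain, a combination known in Arabidopsis from plastid J proteins. It was at 57.1, 73.6 and 82.0 in OE and 75.6, 72.4 and 75.8 in WT. Nitab4.5_0000754g0100, with only a J domain, was at 49.5, 38.6 and 40.9 in OE and 45.7, 54.4 and 117 in WT. Its log2 difference of -0.62 ± 0.38 (SE) was -0.22 without WT replicate 3.

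**Figure D1:**
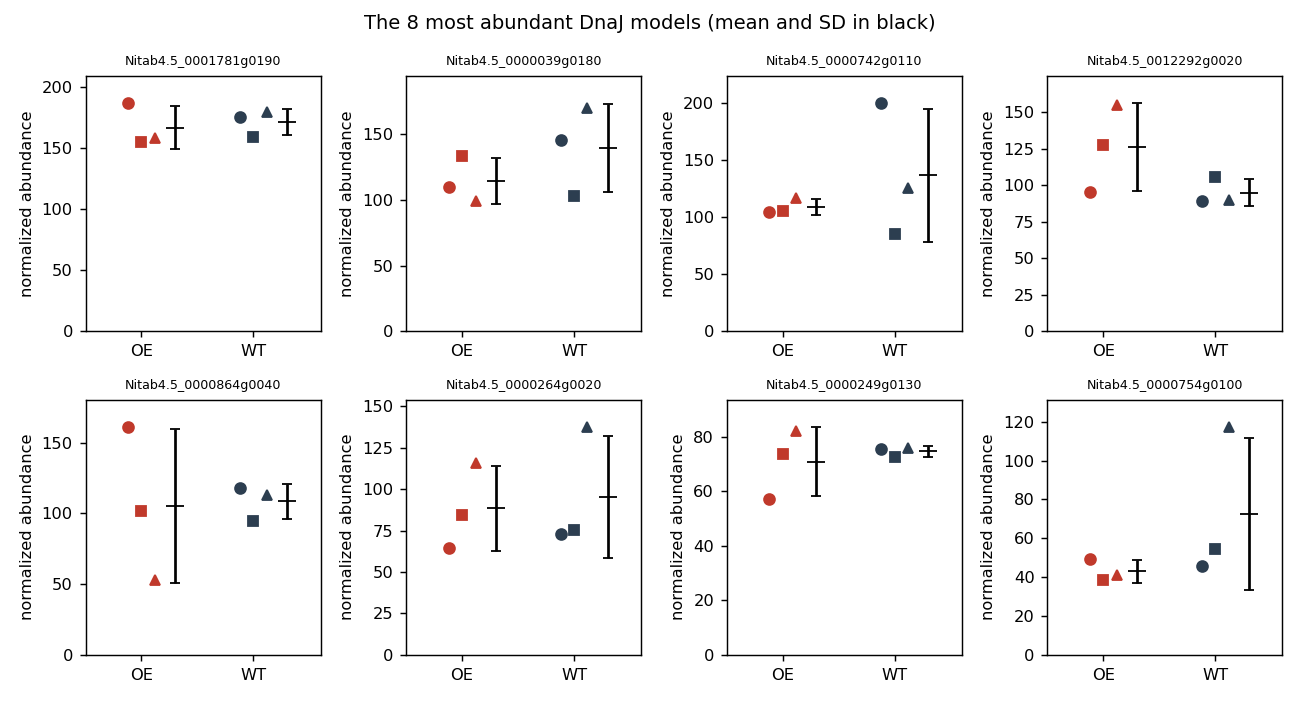
Normalized abundance of the 8 most abundant DnaJ models in the OE libraries (left, red) and the WT libraries (right, dark), with replicate 1 as a circle, 2 as a square and 3 as a triangle, and mean ± SD in black (n = 3). The groups overlap in all 8 panels, and Nitab4.5_0000742g0110 and Nitab4.5_0000754g0100 each have 1 high WT library, at 200 and 117.

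No DnaJ model passed the test between OE and WT. The fit with limma on log2(value + 1) over all 17962 models, with Benjamini-Hochberg adjustment, called 0 of the 125 and 1 model in all, 0.00557% of those tested. The smallest adjusted p among the members was 0.999. At an unadjusted p below 0.05 there were 2 members, Nitab4.5_0005579g0030 and Nitab4.5_0006983g0010, beside 2.82% of all tested models. The 3 OE and 3 WT values did not overlap in 10 members, 8.0% of them, beside 7.87% of all tested models, so the share was that of the background.

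Differences among the members were mostly small. The median log2 difference was -0.04, beside -0.01 for all tested models, and the interquartile range of the members was -0.22 to 0.22, beside -0.26 to 0.23. An absolute log2 difference of at least 1 occurred in 2 members, beside 3.77% of all tested models. For 31 of the 76 members with a mean of at least 5, the unadjusted 95% confidence interval lay wholly within a 2-fold change either way, and for the other 45 it reached 2-fold or beyond. The interval lay within 2-fold for 40.8% of these members, beside 43.5% of all tested models at that abundance.

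The count of higher against lower members was not stable. As deposited, 54 were higher and 71 lower in OE, so that 43.2% were higher, beside 48.3% of all tested models. With the libraries scaled to equal totals 68 were higher, 54.4% of the members beside 57.8% of all tested models, so that both shares moved up together. Without OE replicate 3 the count was 74, 59.2% beside 52.6%. Without WT replicate 1 it was 72, 57.6% beside 48.7%, and without WT replicate 3 it was 63, 50.4% beside 49.9%. The summed abundance of the members was 2122 ± 156 in OE and 2200 ± 310 in WT (SD, n = 3 each), a difference within the spread of either group. The share of the library total leaned the other way, with a mean of 0.465% in OE and 0.447% in WT.

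**Figure D2:**
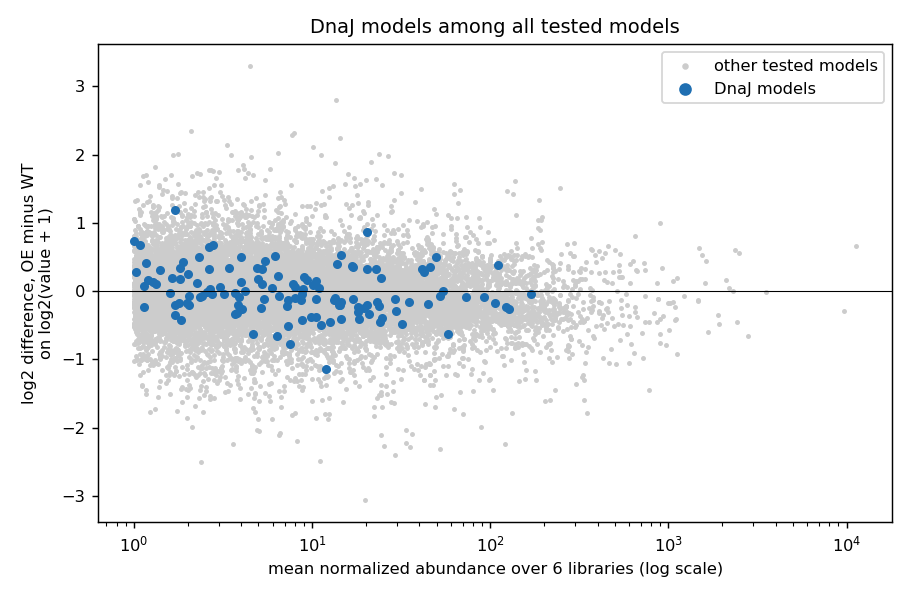
Log2 difference (OE minus WT, on log2(value + 1)) against mean normalized abundance on a log axis, for the 125 DnaJ models in blue and all other tested models in grey. The DnaJ models lie inside the grey cloud, between -1.14 and 1.19.

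Of the 10 models without overlap, 7 were higher in OE and 3 lower, beside 4.01% and 3.86% of all tested models. They were singled out after their values were seen, and none passed the adjusted threshold. The one with the smallest unadjusted p of all members was Nitab4.5_0005579g0030, with only a J domain. It was at 29.3, 24.2 and 25.9 in OE and 16.9, 17.0 and 9.39 in WT, with every OE library above every WT library. Its log2 difference was 0.87 ± 0.29 (SE), with a 95% confidence interval from 0.18 to 1.56 (limma adjusted p = 0.999). The difference was 0.61 without WT replicate 3 and up to 1.00 under the other alternative settings. Its sign held in all 14, but leaving out libraries cannot reverse it where the groups do not overlap.

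Nitab4.5_0006983g0010, a J protein with a substrate-binding domain, was at 3.26, 3.65 and 3.91 in OE and 1.46, 2.40 and 1.90 in WT. Its log2 difference of 0.67 ± 0.26 (SE) rests on low values. A tetratricopeptide-repeat J protein, Nitab4.5_0001301g0110, was at 3.41, 2.68 and 2.6 in OE and 1.85, 1.79 and 1.6 in WT. Repeats of this kind bind the tails of HSP70 and HSP90 in many co-chaperones.

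The other higher models had narrower gaps. Nitab4.5_0003709g0050, a J protein with an AT hook, a motif that binds AT-rich DNA, was at 6.89, 6.68 and 5.48 in OE and 4.71, 5.39 and 3.27 in WT. Nitab4.5_0002074g0010 was at 5.57, 6.33 and 4.91 in OE and 4.56, 3.54 and 4.66 in WT, and Nitab4.5_0004844g0030 at 9.56, 10.06 and 9.39 in OE and 7.81, 9.05 and 8.01 in WT. The steadiest member of the group was Nitab4.5_0010756g0020, at 11.11, 10.80 and 11.21 in OE and 9.95, 9.76 and 9.87 in WT. Its small log2 difference of 0.15 ± 0.22 (SE) shows a separation without overlap at a difference far below 2-fold. For Nitab4.5_0002074g0010, Nitab4.5_0004844g0030 and Nitab4.5_0010756g0020 the J domain is all that the descriptions name.

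The 3 lower models were a substrate-binding J protein, an RNA-binding one and one with a thioredoxin-like fold. Nitab4.5_0000906g0010, of the substrate-binding type, was at 4.99, 4.87 and 3.94 in OE and 6.47, 6.23 and 11.71 in WT. Its log2 difference was -0.66 ± 0.30 (SE), the highest WT library stood apart from the other two, and without that library, replicate 3, the difference was -0.40. Nitab4.5_0000195g0240, with a thioredoxin-like fold of the sort found in redox proteins, was at 5.62, 8.63 and 7.90 in OE and 10.51, 8.79 and 11.33 in WT. Nitab4.5_0000563g0090, with an RNA recognition motif, was at 3.92, 2.58 and 3.06 in OE and 4.36, 4.18 and 4.11 in WT.

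**Figure D3:**
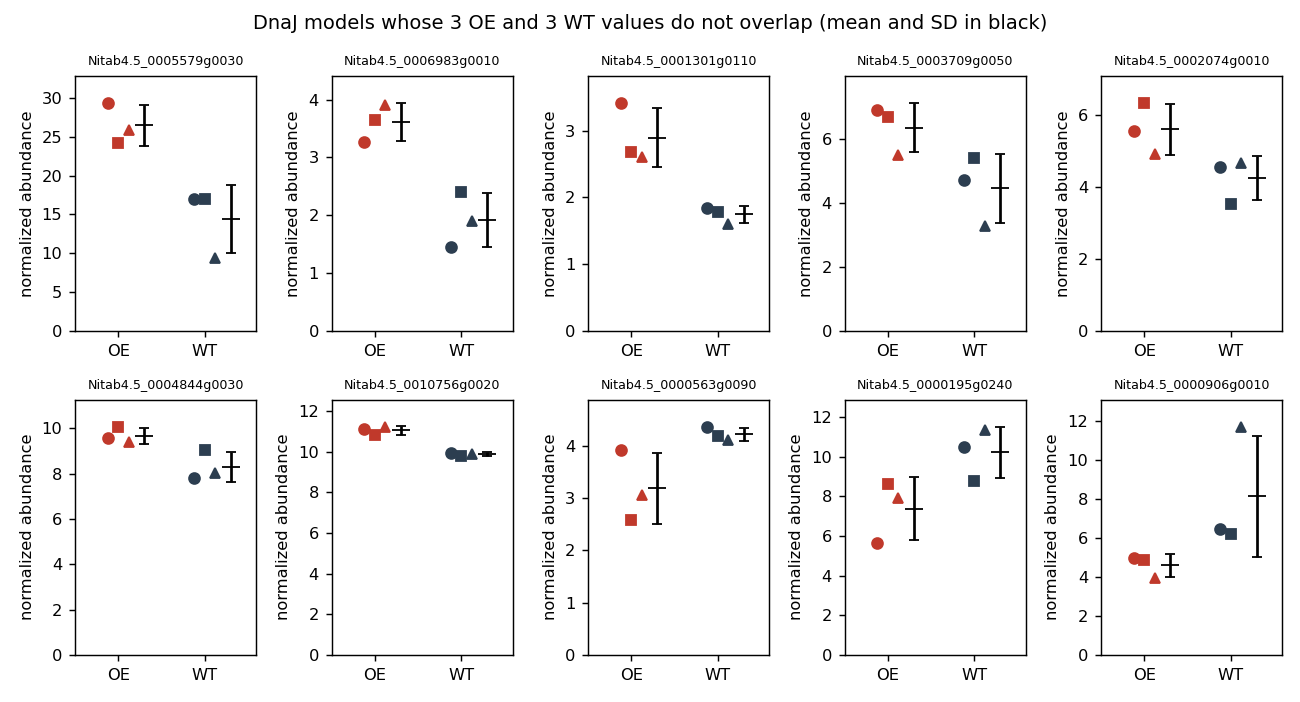
Normalized abundance of the 10 DnaJ models whose OE values (left, red) and WT values (right, dark) do not overlap, with replicate 1 as a circle, 2 as a square and 3 as a triangle, and mean ± SD in black (n = 3). They are ordered by log2 difference, from 0.87 in Nitab4.5_0005579g0030 to -0.66 in Nitab4.5_0000906g0010, and were chosen for not overlapping.

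The 6 canonical J proteins were divided in abundance. Beside Nitab4.5_0001781g0190, Nitab4.5_0000687g0210 was at 53.3, 50.04 and 48.4 in OE and 57.3, 39.5 and 66.5 in WT, and Nitab4.5_0002598g0030 at 19.9, 27.4 and 30.9 in OE and 18.9, 22.9 and 25.6 in WT. The other 3 were between 1.09 and 5.96 on average. Together the 6 summed to 253 ± 16 in OE and 256 ± 24 in WT (SD, n = 3 each), with 3 higher and 3 lower, or 5 and 1 with libraries scaled to equal totals. Requiring at least 1 in at least 3 libraries left 2 higher and 3 lower. The model this dropped, Nitab4.5_0002450g0140, averaged 1.65 in OE and 0.527 in WT. It reached the mean of 1 only through its OE values. Of the low ones, Nitab4.5_0009724g0020 was listed at 0 in OE replicate 2 and at 1.19 to 3 elsewhere.

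The 15 J proteins with a substrate-binding domain and no cysteine-rich domain were at low to moderate levels, with a highest mean of 18.0. That model, Nitab4.5_0000621g0080, was at 15.1, 18.6 and 15.6 in OE and 20.3, 16.6 and 21.7 in WT. Of the 15, 5 were higher and 10 lower, with a median log2 difference of -0.18, which was 0.001 without WT replicate 1. Their sum was 99.1 ± 4.0 in OE and 111 ± 19 in WT (SD, n = 3 each), and WT replicate 3 had the highest sum at 130, against 92.7 to 111 in the other WT libraries.

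WT replicate 3 was also the highest library of single members in this type. Nitab4.5_0001301g0160 was at 5.11, 6.48 and 4.75 in OE and 7.04, 4.59 and 15.71 in WT, and Nitab4.5_0011161g0010 at 8.82, 9.37 and 6.96 in OE and 11.50, 8.79 and 13.78 in WT. In the opposite direction, Nitab4.5_0000710g0040 was at 15.2, 11.4 and 20.8 in OE and 8.29, 15.5 and 11.4 in WT. The groups overlapped in each of these models.

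The 61 models with only a J domain named carried the largest summed abundance of the domain types, 1047 ± 95 in OE and 1090 ± 150 in WT (SD, n = 3 each). Of them, 23 were higher and 38 lower in OE, with a median log2 difference of -0.08. The split was 30 and 31 with libraries scaled to equal totals and 38 and 23 without OE replicate 3. The most negative log2 difference of all members, -1.14 ± 0.63 (SE), belonged to Nitab4.5_0006920g0050. It was at 15.7, 6.88 and 1.94 in OE and 21.2, 9.45 and 16.7 in WT, with the lowest value in OE replicate 3 and overlap between the groups. Without OE replicate 3 the difference was -0.48, and without OE replicate 1 it was -1.74. Nitab4.5_0006920g0040 had a like pattern, at 8.32, 4.07 and 3.67 in OE and 13.2, 6.70 and 9.09 in WT, a log2 difference of -0.77 ± 0.37 (SE). Nitab4.5_0003973g0020 was at 28.2, 24.2 and 25.5 in OE and 25.6, 36.4 and 51.7 in WT, while Nitab4.5_0011716g0020 was at 22.7, 18.5 and 27.4 in OE and 17.6, 16.4 and 19.5 in WT.

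The 25 J models with other named domains were mostly low, with a median mean abundance of 3.97. Of them, 18 were higher and 7 lower in OE, beside 48.3% higher among all tested models, with a median log2 difference of 0.13. The split was 20 and 5 with libraries scaled to equal totals, 14 and 11 without WT replicate 3, and 12 and 13 without both libraries numbered 3. Requiring at least 1 in at least 3 libraries left 16 higher and 7 lower. The models this dropped, Nitab4.5_0011205g0010 and Nitab4.5_0000556g0230, averaged below 1 in WT and above 1 in OE. Their summed abundance was 204.5 ± 17.6 in OE and 203.6 ± 12.9 in WT (SD, n = 3 each), so the count of higher models had no counterpart in the sum, to which Nitab4.5_0000249g0130 contributed most.

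Within this type, the second ferredoxin-type model, Nitab4.5_0007923g0010, was at 19.4, 15.4 and 11.6 in OE and 30.2, 17.9 and 15.7 in WT. The second model with a thioredoxin-like fold, Nitab4.5_0003654g0010, was at 2.64, 4.52 and 3.05 in OE and 6.52, 3.96 and 7.08 in WT. Its log2 difference of -0.63 ± 0.31 (SE) had the sign of the first, at -0.43 ± 0.26 (SE) and at -0.27 without OE replicate 1, and neither passed the test. Nitab4.5_0001331g0010, described as Sec63, which works with HSP70 at the protein channel of the endoplasmic reticulum, was at 3.01, 6.03 and 4.37 in OE and 0.44, 5.29 and 4.88 in WT. Its WT replicate 1 was far below the other 5 libraries.

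A few models with other named tasks were at lower levels than the ferredoxin-type ones. Nitab4.5_0009788g0030, described as Hsc20, known in yeast for iron-sulphur cluster assembly in mitochondria, averaged 1.14 ± 0.46 in OE and 1.14 ± 0.98 in WT (SD, n = 3 each). Nitab4.5_0000453g0220 has a DPH-type zinc finger, known in yeast from diphthamide synthesis, and averaged 1.55 ± 0.13 in OE and 1.61 ± 0.30 in WT (SD, n = 3 each). Of the 2 models described as DnaJ-like protein C11, in human cells a mitochondrial protein, Nitab4.5_0000312g0100 averaged 5.41 ± 1.43 in OE and 4.57 ± 0.15 in WT and Nitab4.5_0007598g0020 averaged 1.62 ± 0.49 in OE and 1.19 ± 0.84 in WT (SD, n = 3 each).

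Other members carried domains of unknown function or repeats. Nitab4.5_0011205g0010 has the domain DUF4101, found in the Arabidopsis plastid-division protein ARC6. It was at 7.03, 1.98 and 0.09 in OE and 0.91, 0 and 0.16 in WT, a log2 difference of 1.19 ± 0.71 (SE), the most positive of all members, with OE replicate 1 far above the rest. The difference was 0.47 without OE replicate 1 and 1.91 without OE replicate 3. This model averaged 0.357 in WT, so it reached the mean of 1 only through its OE values. Of the 2 models with DUF1977, known from human J proteins of the endoplasmic reticulum membrane, Nitab4.5_0001941g0060 averaged 12.4 ± 2.6 in OE and 14.0 ± 5.1 in WT, and Nitab4.5_0000570g0180 averaged 8.29 ± 2.76 in OE and 7.78 ± 1.34 in WT (SD, n = 3 each). Nitab4.5_0003234g0140, of the X-domain type, was at 17.1, 14.5 and 25.8 in OE and 13.2, 17.7 and 12.0 in WT, with its highest value in OE replicate 3.

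Nitab4.5_0002341g0030, the more abundant of the 2 J models with an RNA recognition motif, averaged 8.10 ± 1.09 in OE and 7.53 ± 1.75 in WT (SD, n = 3 each). Nitab4.5_0000277g0020, with DUF3752, averaged 11.1 ± 1.0 in OE and 10.7 ± 1.3 in WT (SD, n = 3 each). The second tetratricopeptide model, Nitab4.5_0000826g0110, was at 3.92, 4.04 and 3.50 in OE and 3.60, 3.75 and 1.56 in WT. The groups overlapped in each of these 3, and so they did in the most abundant of the DUF3444 models, Nitab4.5_0000176g0050, at 4.19 ± 0.70 in OE and 3.75 ± 0.56 in WT (SD, n = 3 each). A DUF3444 model with a J domain conserved site, Nitab4.5_0014735g0010, averaged 2.27 ± 0.64 in OE and 1.76 ± 0.60 in WT, and Nitab4.5_0007490g0010, with an aldehyde oxidase domain beside the J domain, 1.34 ± 0.14 in OE and 1.23 ± 0.77 in WT (SD, n = 3 each).

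The 17 cysteine-rich models without a named J domain were comparatively abundant, with a median mean abundance of 14.6 and a sum of 515 ± 60 in OE and 534 ± 119 in WT (SD, n = 3 each). Of these, 5 were higher and 12 lower in OE, with a median log2 difference of -0.13. The split was 7 and 10 with libraries scaled to equal totals, and the median was 0.12 without OE replicate 3 and 0.09 without WT replicate 1. Nitab4.5_0010481g0030 was at 87.3, 53.4 and 35.6 in OE and 56.0, 29.8 and 34.03 in WT, so that 2 of the 3 OE values lay within the WT range. Nitab4.5_0004974g0040, with a peptidoglycan binding-like domain, was at 8.95, 6.95 and 5.86 in OE and 8.06, 5.20 and 2.34 in WT. The other member without a named J domain, Nitab4.5_0009839g0010, names no cysteine-rich domain either. This homologue of subfamily C averaged 3.56 ± 0.58 in OE and 4.51 ± 0.88 in WT (SD, n = 3 each).

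**Figure D4:**
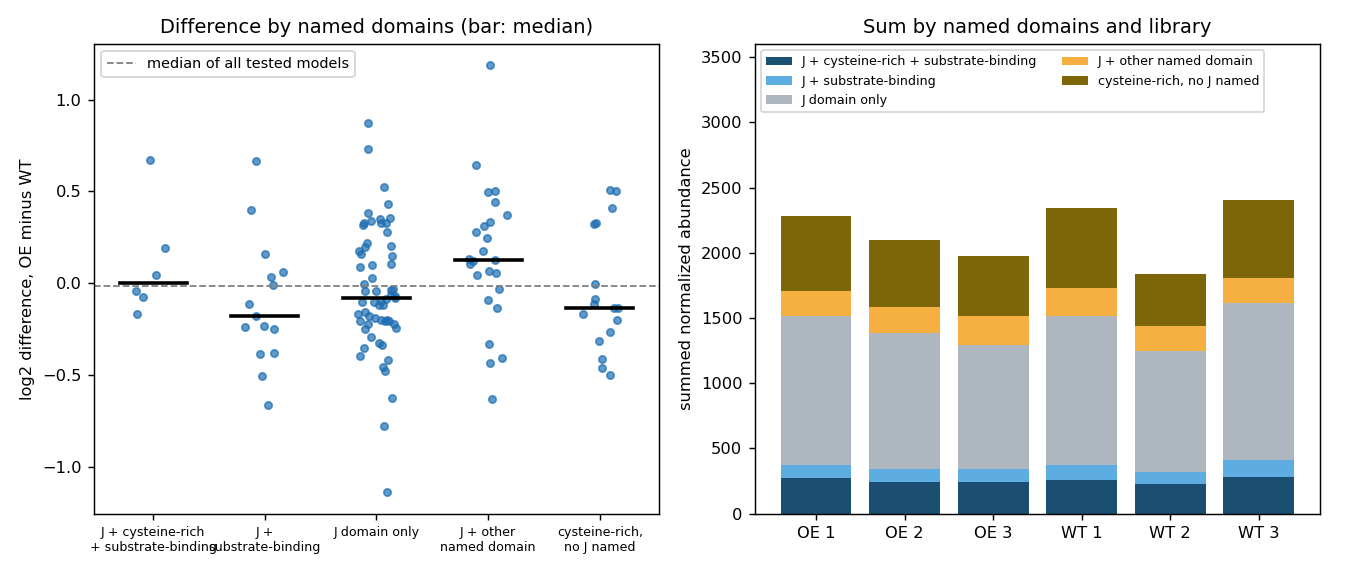
Left, log2 difference (OE minus WT) of each DnaJ model by the domains its description names, with the median as a bar and the median of all tested models, -0.01, dashed. Right, summed normalized abundance of each domain type per library (the subfamily C homologue is not drawn), with totals of about the same height in OE and WT and the lowest in WT 2.

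Libraries of the same group differed among themselves. The median within-group SD of the members on the log2 scale was 0.36, beside 0.43 for all tested models. The 24 models naming a cysteine-rich or zinc finger domain, with or without a J domain, were the most variable description class, at 0.51. WT replicate 3 held the highest value of 39 members, 31.2% of them, beside 28.9% of all tested models. OE replicate 3 held the lowest value of 37 members, 29.6%, beside 28.6%. WT replicate 2 was the highest library for only 2 members, 1.6%, beside 8.64% of all tested models, and the lowest for 25 members, 20.0%, beside 10.3%.

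The libraries also differed in their light-harvesting transcripts, with chlorophyll a-b binding sums of 8217, 4416 and 1651 in OE replicates 1, 2 and 3 and of 6172, 3152 and 1296 in WT replicates 1, 2 and 3. After these sums were seen, members were counted whose values stood in the same order within both groups. There were 15, or 12.0%, beside 15.1% of all tested models, and 10 members in the reverse order, or 8.0%, beside 10.3%. The member with the highest coefficient of variation among those with a mean of at least 5, 79.4%, was the cysteine-rich Nitab4.5_0000527g0200. It was at 22.02, 6.14 and 2.12 in OE and 22.5, 4.37 and 10.43 in WT.

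Members in the order of the light-harvesting sums included 4 of the 17 cysteine-rich models without a J domain and 6 of the 61 with only a J domain. Nitab4.5_0000110g0410, with only a J domain, was at 12.3, 6.86 and 1.89 in OE and 12.01, 6.62 and 3.80 in WT, and the cysteine-rich Nitab4.5_0001750g0040 at 18.8, 14.4 and 6.40 in OE and 29.6, 9.96 and 8.50 in WT. In the reverse order, Nitab4.5_0002049g0040 was at 11.2, 16.2 and 32.3 in OE and 14.9, 22.7 and 47.2 in WT, and Nitab4.5_0000991g0120 at 3.22, 4.96 and 11.39 in OE and 3.62, 6.36 and 9.49 in WT. The part that the differences in light-harvesting transcripts have in any comparison above was not tested.

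The partners of DnaJ proteins in the chaperone cycle showed no call either. Of 24 tested models for HSP70, the ATPase that J domains stimulate, 6 were higher and 18 lower in OE, with a median log2 difference of -0.145 beside -0.01 for all tested models. The median stayed negative under all 14 alternatives, between -0.26 and -0.05, and was -0.05 without OE replicate 1 and with libraries scaled to equal totals. The split was 9 and 15 with equal totals, and 10 and 14 without OE replicate 1 or without WT replicate 1. Their sum was 1809 ± 427 in OE and 1990 ± 765 in WT (SD, n = 3 each). The most abundant, Nitab4.5_0000349g0130, was at 850, 995 and 1431 in OE and 933, 1583 and 606 in WT, with the lowest and the highest library both in WT.

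Of the nucleotide exchange factors, GrpE models were 1 higher and 4 lower in OE (median -0.03), and BAG domain models 3 higher and 5 lower (median -0.07). With libraries scaled to equal totals these splits were 5 and 0 for GrpE and 4 and 4 for BAG. GrpE models were also mostly higher without OE replicate 3, at 4 and 1, and without WT replicate 1, at 5 and 0, and BAG models were at 5 and 3 without WT replicate 2. The most abundant GrpE model, Nitab4.5_0003690g0030, averaged 26.5 ± 8.6 in OE and 26.5 ± 8.8 in WT, and the most abundant BAG model, Nitab4.5_0013021g0030, 15.2 ± 2.7 in OE and 26.8 ± 20.0 in WT (SD, n = 3 each). HSP90, which takes clients on from HSP70, had 5 models higher and 8 lower (median -0.11). Without WT replicate 3 the HSP90 split was 2 and 11 (median -0.34), and without both libraries numbered 3 it turned to 7 and 6 (median 0.06), while the median was -0.04 without WT replicate 2. Its most abundant model, Nitab4.5_0000337g0060, described as endoplasmin, averaged 36.6 ± 21.9 in OE and 43.4 ± 16.3 in WT (SD, n = 3 each).

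HSP20 small heat shock proteins, which hold unfolding proteins, had 15 models higher and 24 lower (median -0.14), with no overlap in 7 lower models, 17.9% beside 3.86% of all tested models, and none called. The split was 19 and 20 with libraries scaled to equal totals, and the median was -0.01 without OE replicate 3, -0.06 without WT replicate 1 and -0.22 without WT replicate 2. The most abundant, Nitab4.5_0003264g0010, averaged 182 ± 67 in OE and 255 ± 133 in WT (SD, n = 3 each). The HSP100/Clp ATPases, some of which dissolve aggregates together with HSP70, had 3 models higher and 6 lower (median -0.12). The split turned to 5 and 4 without OE replicate 3 (median 0.14) and without WT replicate 1 (median 0.005). The most abundant of them, Nitab4.5_0007669g0010, averaged 7.64 ± 6.55 in OE and 9.47 ± 8.06 in WT (SD, n = 3 each). Heat shock factors, the transcription factors of chaperone genes, had 12 higher and 15 lower (median -0.08), or 14 and 13 with equal totals, and Nitab4.5_0000082g0150 was at 18.6, 58.04 and 274 in OE and 36.2, 187 and 254 in WT. The lowest library of each group was replicate 1.

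The chaperonin list had 32 models higher and 25 lower (median 0.02), but 29 of its 57 models, with the most abundant, Nitab4.5_0019070g0010 (228 ± 52 in OE and 280 ± 33 in WT, SD, n = 3 each), are alcohol dehydrogenases with a GroES-like fold. The whole list had 39 higher and 18 lower with libraries scaled to equal totals, where 57.8% of all tested models were higher. It turned to 22 and 35 without OE replicate 1 (median -0.15), to 26 and 31 without OE replicate 2 (median -0.03) and to 15 and 42 without WT replicate 3 (median -0.11), and was 41 and 16 without OE replicate 3. The other 28 models split into 20 higher and 8 lower. That split was 13 and 15 without OE replicate 1 and 8 and 20 without WT replicate 3. Groups did not overlap in 6 of the 57 models, all lower in OE, beside 3.86% of all tested models. Of these 6, 3 were among the 28 models. No model of the list was higher in OE without overlap, and none was called.

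Tetratricopeptide models were 244 higher and 138 lower (median 0.06). The split was 287 and 95 with libraries scaled to equal totals, and it turned to 178 and 204 without WT replicate 3 (median -0.01). Of these models, 226 are pentatricopeptide proteins by description, a family of organelle RNA-binding proteins. The other 156 split into 90 higher and 66 lower, or 106 and 50 without OE replicate 3 and 76 and 80 without WT replicate 3. Nitab4.5_0000845g0230, the most abundant of the whole list, is described as an RNA-processing protein with a HAT helix. It averaged 312 ± 104 in OE and 268 ± 11 in WT (SD, n = 3 each). Peptidyl-prolyl isomerases were 29 higher and 30 lower (median -0.01). The split was 36 and 23 with equal totals, 20 and 39 without OE replicate 1 (median -0.14) and 35 and 24 without OE replicate 3 (median 0.09), and their most abundant model, Nitab4.5_0000980g0090, averaged 577 ± 177 in OE and 727 ± 295 in WT (SD, n = 3 each).

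**Figure D5:**
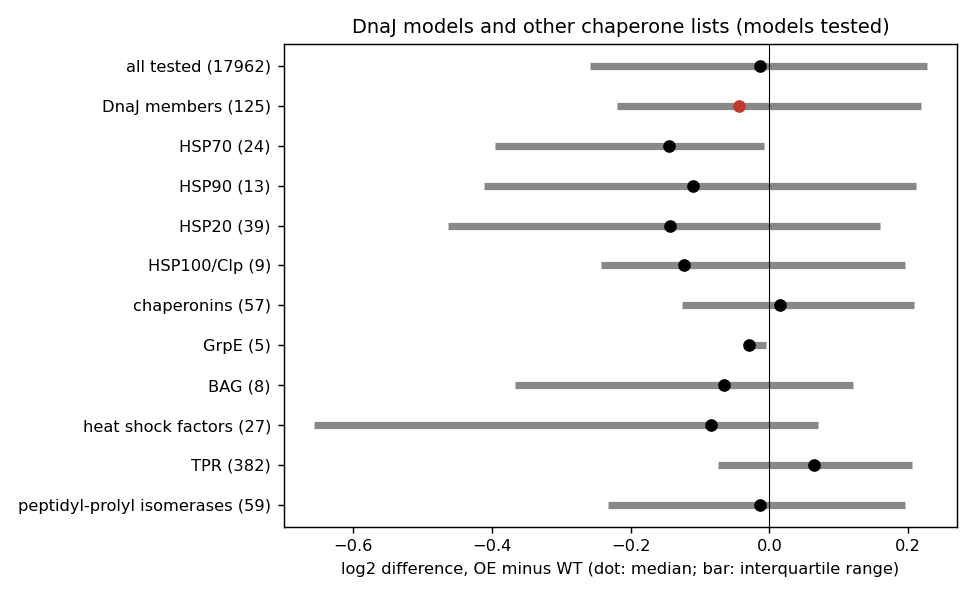
Log2 difference (OE minus WT) of the tested models of each chaperone list, with the median as a dot and the interquartile range as a bar, and the number of models in brackets. The DnaJ models in red, at -0.04, lie beside all tested models, at -0.01, and the HSP70 median is at -0.145.

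The threshold of 1 on the mean left close cases on both sides. Just inside, Nitab4.5_0003198g0010 was at 1.68, 3 and 0 in OE and 0, 1.35 and 0 in WT, and Nitab4.5_0000556g0230 at 0.57, 0 and 3.56 in OE and 0.40, 1.52 and 0.13 in WT. Just outside, Nitab4.5_0001176g0020 was listed at 5.51 in OE replicate 3 and at 0 in the other five libraries, and Nitab4.5_0001774g0070 averaged 0.847 ± 0.168 in OE and 0.843 ± 0.655 in WT (SD, n = 3 each). A member at this edge rests on a few libraries, and 5 of the 125 members were listed at 0 in some library, beside 5.71% of all tested models.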

How the data were processed

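Per the labels' protocols, total RNA was made into paired-end TruSeq libraries. The submitters' processing notes name HISAT2, StringTie and RSEM but no version, setting or genome build. The authors deposited a normalized abundance signal per gene model and library, 1 table per plant material, and the 2 tables list the same models. Nothing says whether they were normalized together, so levels set across them assume comparable values. No RefSeq name matched a model identifier. The authors' group means were not used.

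Values were transformed to log2(value + 1), which understates changes of low models. All 17962 models that reached a mean of 1 were fitted together with limma 3.58.1 in R 4.3.3 (trend and robust options, group only, 4 residual degrees of freedom, calls at an adjusted p below 0.05). The method was tested on simulated data with changes larger than any difference among the members. Its power at the sizes seen here was not tested. Alternative settings were no filter, a pseudocount of 0.1, at least 1 in at least 3 libraries, 2 scalings, limma without both options, replicate number as a block, each library left out, and both libraries numbered 3 left out. Depth is unknown, so the precision of low values is too.

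Members, lists and tests were chosen with earlier results of these data known. Named models are the 8 most abundant, the 6 with the most positive and the 6 with the most negative moderated t at a mean of at least 5, the most abundant of each of 25 descriptions (order of terms ignored), the 2 on each side of the mean of 1, the most variable, and the most abundant of each list. Domain types and other models named were chosen after descriptions and values were seen.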

Additional observations from a re-analysis of the deposited data

How the results depend on the processing

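The count of DnaJ models called was 0 under all 14 alternatives, where the smallest adjusted p of any member was 0.723 and 0 to 4 members had an unadjusted p below 0.05. Over all tested models, the 1 call became 2 with no filter and 0 with a pseudocount of 0.1, with either scaling, with the replicate block, without both libraries numbered 3 and without any 1 library (range 0 to 0). The number of DnaJ models without overlap, 10, was 16 to 31 with 1 library left out, 12.8% to 24.8% of the members beside 13.6% to 20.8% of all tested models. It was 33 without both libraries numbered 3, 26.4% beside 30.3%, where fewer values make separation easier. The median log2 difference of the members, -0.04, ranged from -0.11 to 0.09 with 1 library left out and was 0.03 with equal library totals, a scaling that put the median of all tested models at 0.068.

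Description classes were a sorting by the first matching text, and they differ in part from the domain types above. With 1 library left out, the median of the class of 18 C-terminal models, -0.06, ranged from -0.234 to 0.024. That of the 61 models with only a J domain, -0.08, ranged from -0.129 to 0.12. Without both libraries numbered 3, the class of 22 models with a further domain was at -0.029. The domain type of 25 J models with other named domains was at -0.005 there. The GrpE median, -0.03, ranged from -0.13 to 0.26 with 1 library left out and was 0.07 without both libraries numbered 3. The BAG median ranged from -0.348 to 0.063, and that of heat shock factors from -0.165 to -0.073, and it was 0.009 with equal library totals. The cause of these shifts was not tested. Of 80 DnaJ models followed, 40 kept the sign of their difference under every alternative. The 80 were picked partly for their values. They include the models without overlap, whose sign cannot reverse when libraries are left out. The replicate block and limma without both options change the test but not the difference. The share that kept its sign is therefore no measure of how stable the sign is among all members.

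Replicate numbers matched the libraries only in part, and the main fit did not treat them as pairs. Deviations from the group means correlated across models at 0.56, -0.11 and 0.42 for the pairs numbered 1, 2 and 3, and OE replicate 2 was closest to WT replicate 1 (0.13). With the replicate block 4 members had an unadjusted p below 0.05 and 0 were called.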
